A study of Caenorhabditis elegans with 4 samples.

Results

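The UNC-39 binding regions described here lie on the arms of 4 autosomes of Caenorhabditis elegans, II, III, IV and V. A region belongs to an arm if its midpoint falls outside a fixed central interval of its chromosome: 4879000 to 12020000 bp on II, 3722000 to 10340000 on III, 3896000 to 12970000 on IV and 5897000 to 16550000 on V. Midpoints below the interval are on the left arm and midpoints above it on the right arm. Of the 1082 regions in the combined list, 276 met this rule, 136 on left arms and 140 on right arms. The rule uses position alone. It takes in the chromosome ends and leaves out chromosome I, so it does not cover every autosome arm. Recombination was not measured here, and the sources used here do not name the build on which the intervals were set. They were applied as they stand to coordinates of WormBase WS180.

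The animals were embryos of strain OP186, from a mixed male and hermaphrodite population grown at 20 °C. They carried wgIs186, an unc39::TY1 EGFP FLAG C transgene that also holds unc119, in an unc119(ed3) background. The transgene was introduced by bombardment, and only this 1 strain was used. Chromatin was fixed with 2% formaldehyde and precipitated with goat antibodies to GFP in 2 ChIP samples; 2 input samples of total DNA carry the same genotype, and their values were not analysed here. The titles were followed for these groups, because the description fields name the antibody under the input samples and call the ChIP samples input DNA.

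UNC-39 is a homeodomain protein of the sine oculis family, with known roles in mesoderm and in the placing of neurons. In C. elegans, crossing over is frequent on the arms of autosomes and rare in their centres. Arms are known to carry more repeats, more heterochromatin marks and more genes of fast-evolving families, while centres hold many conserved and broadly expressed genes.

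PeakSeq, a program that calls peaks, gave each region a position and a q-value. There are 3 lists, 1 from each of the 2 ChIP samples and 1 for both together. They hold no read counts, so the depth is unknown, and a q-value moves with depth as well as with occupancy. By the same rule the replicate 1 list held 83 arm regions of 318 (40 left, 43 right) and the replicate 2 list 272 of 1077 (134 left, 138 right). The combined list largely repeats replicate 2: 219 of its 276 arm regions (79.3%) had the start, end and q of a replicate 2 region. The comparisons in replicate 2 are therefore not a separate check of those in the combined list. The labels do not tell whether the ChIP samples were grown as separate cultures. Tests below treat regions as independent, which close regions are not, so their p-values may be too small. They compare regions within these lists, not conditions over samples, and were chosen with earlier results of these data known.

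Left-arm regions were narrower than right-arm regions. The median width was 319.5 bp on left arms (quartiles 223 and 510.5 bp) and 484.5 bp on right arms (quartiles 253.8 and 757.8 bp). The left median was the lower one on each of the 4 chromosomes. It was 304 bp on the left and 516.5 bp on the right arm of II, and 325 and 363 bp on the left and right arm of III. On IV it was 347 bp on the left and 547 bp on the right arm, and on V 269 and 603 bp on the left and right arm. The interquartile ranges of both sides overlapped on every chromosome. For comparison, the median width was 347 bp in the centres of the same chromosomes.

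For a test, each region was set against the median of all arm regions of its own chromosome. On left arms 55 of 136 regions were wider than that median, or 40.4% (95% Wilson interval 32.6 to 48.8%). On right arms 82 of 140 were, or 58.6% (50.3 to 66.4%). The common odds ratio, left over right, was 0.479 (95% interval 0.287 to 0.797; exact Cochran-Mantel-Haenszel test over 4 chromosomes, two-sided, adjusted p = 0.0218 by Benjamini-Hochberg over 6 comparisons of left with right). No single chromosome passed the test alone after adjustment over 4 chromosomes; the exact adjusted p was 0.168 on V and 0.515 on III. Leaving out a chromosome kept the direction but lost the call for II (odds ratio 0.485, exact adjusted p = 0.0778), IV (0.492, 0.0783) and V (0.544, 0.148).

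The replicate 1 list showed the same difference with a lower odds ratio. Its median width was 285.5 bp on left arms and 522 bp on right arms, with quartiles of 242.2 and 441.5 bp on the left and 352.5 and 727 bp on the right. There, 10 of 40 left-arm regions and 30 of 43 right-arm regions exceeded the median of their chromosome's arms (odds ratio 0.16, 95% interval 0.054 to 0.439, exact stratified test, adjusted p = 0.000514). On II 1 of 9 left and 8 of 10 right regions did, the only chromosome to pass alone in that list (exact test, adjusted p = 0.0219 over 4 chromosomes). In replicate 2 the odds ratio was 0.457 (exact adjusted p = 0.00945).

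Within the combined list, the medians lay farther apart among the regions that replicate 1 also held. Those had a median width of 327 bp on left arms (37 regions) and 654 bp on right arms (42 regions). Regions that replicate 1 did not hold had medians of 314 bp on left arms (99 regions) and 337 bp on right arms (98 regions). Among regions with q below the median of all arm regions, the medians were 394 bp on the left and 596 bp on the right; among the others they were 260 bp on the left and 314 bp on the right. These classes were chosen after the widths were seen, and the difference between them was not tested.

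**Figure D1:**
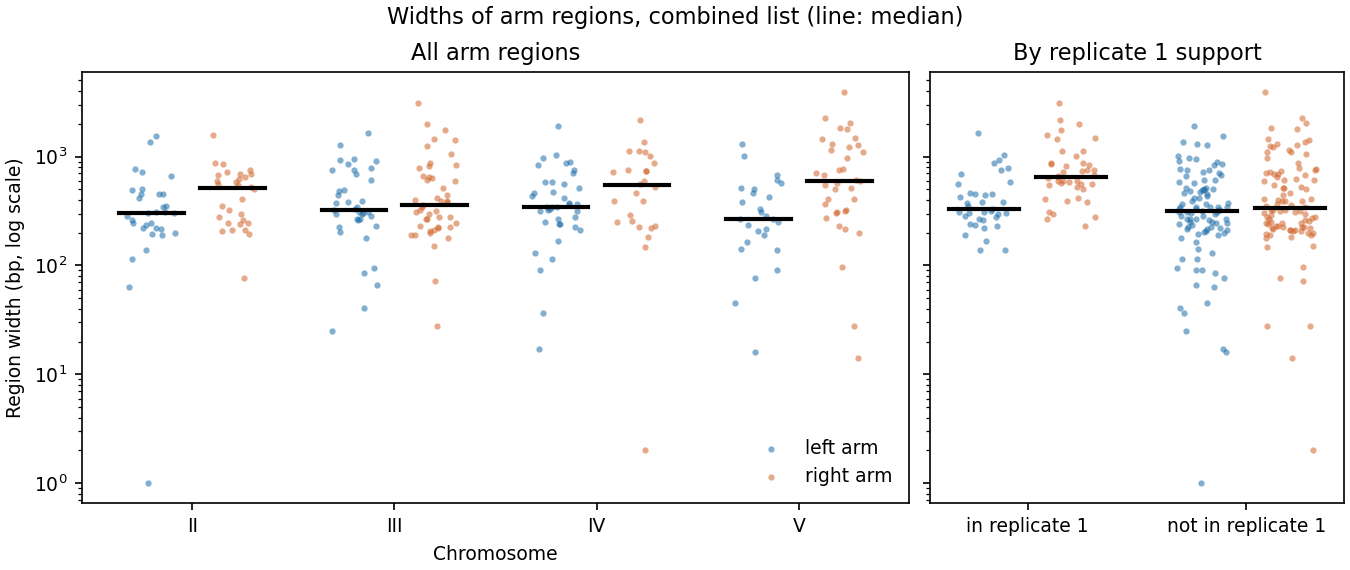
Width of each arm region of the combined list in bp on a log scale (points; black line, median), left arms in blue and right arms in orange, by chromosome (left panel) and by presence in the replicate 1 list (right panel). The right median is the higher one on all 4 chromosomes. In the right panel the medians are farther apart among regions in replicate 1, at 327 bp on left arms and 654 bp on right arms.

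Regions over 1000 bp, a limit chosen after the widths were seen and not tested, made up 8 of 136 on left arms (5.88%) and 26 of 140 on right arms (18.6%). In the centres they numbered 18 of 345, and over the whole list 81 of 1082. Of the 26, 12 lay on the right arm of V, 7 on III, 6 on IV and 1 on II. The widest left-arm region was IV:1914701-1916629, with 1929 bp and q = 7.47e-07, and the widest right-arm region was V:19513996-19517930, with 3935 bp and q = 4.70e-05. Neither met a replicate 1 region. Regions under 50 bp numbered 7 on left arms and 4 on right arms. Together the regions covered 57.5 kb of left arms and 90.2 kb of right arms, or 3194 bp per Mb on the left and 5919 bp per Mb on the right.

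Left and right arms did not differ in density beyond the counting error when the 4 chromosomes were pooled. Left arms held 136 regions on 18.0 Mb, or 7.55 per Mb, and right arms 140 on 15.2 Mb, or 9.19 per Mb. The ratio, left over right, was 0.822 (95% exact interval 0.644 to 1.05; exact binomial test, two-sided, adjusted p = 0.207). Arm length was taken to the first or last position of any list on that chromosome, as no WS180 chromosome lengths were at hand.

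The chromosomes behind this pooled ratio went different ways. On V the left arm held 27 regions at 4.59 per Mb (95% exact Poisson interval 3.02 to 6.67) and the right arm 37 at 8.74 per Mb (6.15 to 12.04). That ratio of 0.525 passed the exact binomial test (adjusted p = 0.0441 over 4 chromosomes). Of the 37 right-arm regions on V, however, 23 lay between 2 and 3 Mb from the boundary. Without that 1 Mb the ratio pooled over the 4 chromosomes was 0.919 (exact binomial test, adjusted p = 0.713). The ratio on V alone was not tested without it. On IV the left arm was the denser one, with 39 regions at 10.4 per Mb (7.39 to 14.2), against 26 at 6.03 per Mb (3.94 to 8.84) on the right arm. The ratio of 1.72 on IV did not pass (exact binomial test, adjusted p = 0.0683), while in the replicate 2 list it was 1.87 and passed (exact binomial test, adjusted p = 0.0323).

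Chromosomes II and III had higher values on the right arm and did not pass the test. II had 32 left regions at 6.87 per Mb and 30 right regions at 9.25 per Mb, and III had 38 left regions at 10.3 per Mb and 47 right regions at 13.7 per Mb. The ratios were 0.743 on II and 0.751 on III (exact binomial test, adjusted p = 0.247 for each). Without IV, the pooled ratio was 0.652 and passed the test (exact binomial test, adjusted p = 0.0109). Whether IV and V differ from each other was not tested.

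In the replicate 1 list no chromosome passed the test, on few regions. V had 6 left regions (1.02 per Mb) and 8 right regions (1.89 per Mb), a ratio of 0.539 (95% exact interval 0.154 to 1.77). IV had 9 left regions (2.40 per Mb) and 10 right regions (2.32 per Mb), a ratio of 1.03 (0.372 to 2.83). The interval for IV still holds the ratio of 1.72 found in the combined list.

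**Figure D2:**
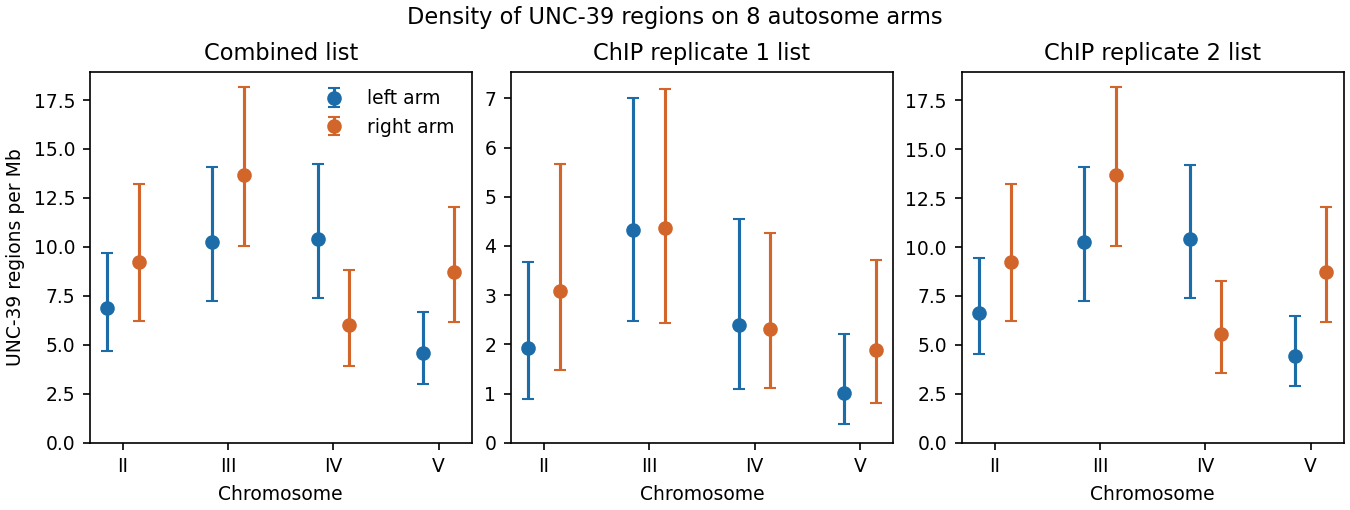
UNC-39 regions per Mb on the left (blue) and right (orange) arm of chromosomes II, III, IV and V in each of the 3 lists (points; bars, 95% exact Poisson intervals for counting error; the y axes differ between panels). In the combined list V is denser on the right arm (4.59 per Mb left, 8.74 per Mb right) and IV on the left arm (10.4 per Mb left, 6.03 per Mb right).

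Over all arms together, regions were more frequent in the outer part of the arm. The excess lay on right arms, while left arms were even. Each arm was divided at its midpoint into an outer segment, next to the chromosome end, and an inner segment of equal length, next to the centre. Outer segments held 158 regions (9.51 per Mb) and inner segments 118 (7.10 per Mb), a ratio of 1.34 (95% interval 1.05 to 1.71; exact binomial test, adjusted p = 0.0281 over 3 comparisons). The replicate 1 list gave 46 outer and 37 inner regions and did not pass (ratio 1.24, exact binomial test, adjusted p = 0.38). Left arms had 68 outer and 68 inner regions. Right arms had 90 outer and 50 inner regions, a ratio of 1.80 (95% exact interval 1.26 to 2.60; exact binomial test, unadjusted p = 0.000913). In replicate 1 the right arms had 28 outer and 15 inner regions, which did not pass (ratio 1.87, exact binomial test, unadjusted p = 0.066). This split by side was made after the counts were seen.

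The right arm of II was the most uneven, with 25 outer and 5 inner regions; its replicate 1 counts were 8 outer and 2 inner. V had 26 outer and 11 inner regions on its right arm, and III 28 outer and 19 inner. On the right arm of IV the order was the other way, with 11 outer and 15 inner regions. On left arms the counts were 13 outer and 19 inner on II, 20 and 18 (outer and inner) on III, 21 and 18 on IV, and 14 and 13 on V.

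Counts per window varied more on right arms. Windows were counted outward from the boundary in steps of 1 Mb, and only whole windows were kept. This left out the outermost stretch of each arm, under 1 Mb long, with its regions. Left-arm windows held 1 to 12 regions (median 8, 15 windows) and right-arm windows 1 to 23 (median 7, 14 windows). The variance of these counts over their mean was 1.63 on left arms and 4.83 on right arms. Regions placed independently at an even density would have a variance near the mean. The exact binomial tests and Poisson intervals do not allow for this excess. The fullest window was the third on the right arm of V, with 23 regions between positions 18589563 and 19545783, against 6 in the next outward. Among whole windows the third also led on the right arm of III, with 20 regions, and on that of II, with 16. Both arms held further regions beyond it, in the stretch not counted, such as those from II:15151246 to II:15263575. Regions in the window on V were wide, with a median of 968 bp and 11 over 1000 bp, and their median −log10 q was 5.63, below the 6.00 of all right-arm regions. Replicate 1 held 4 of these 23, 8 of the 20 on III and 6 of the 16 on II. Without the window on V, the outer over inner ratio was 1.28 (exact binomial test, adjusted p = 0.0885) and the odds ratio for width 0.553 (exact stratified test, adjusted p = 0.136), so both calls were lost.

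**Figure D3:**
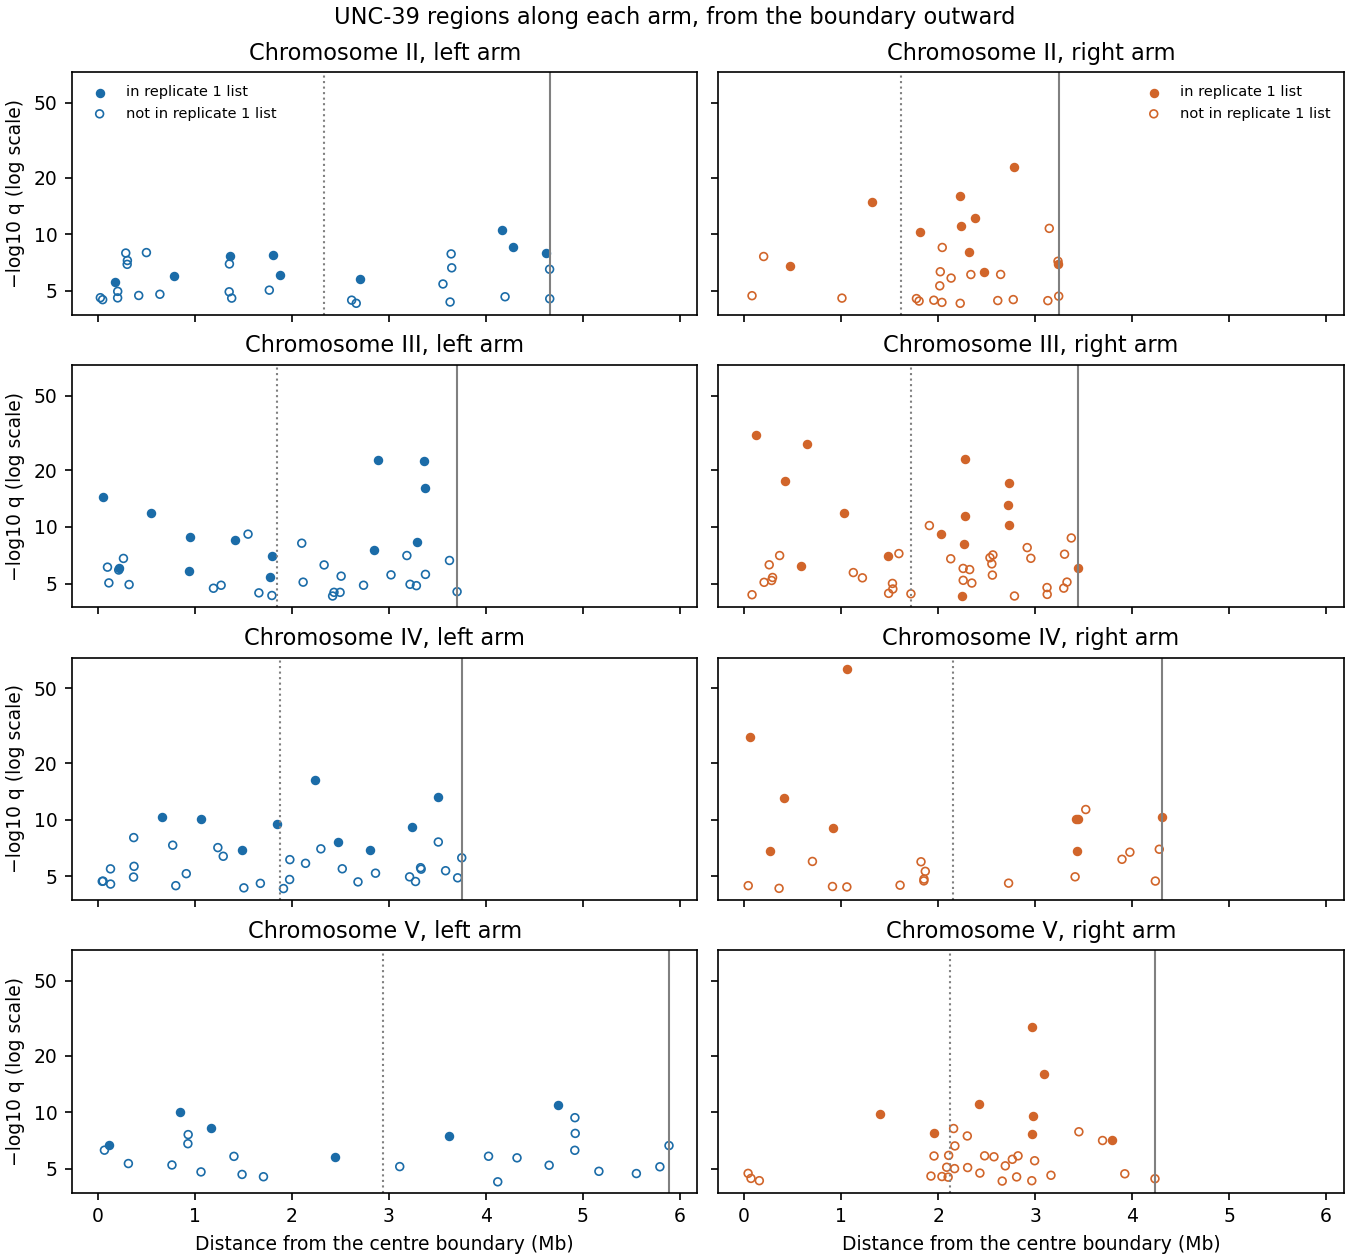
−log10 q of each combined region (y, log scale) by its distance in Mb from the boundary between centre and arm (x) on the 8 arms, left arms in blue and right arms in orange. Filled points are regions also in the replicate 1 list; the dotted line marks the middle of the arm and the solid line its end. Regions crowd between 2 and 3 Mb on the right arms of II, III and V, and the smallest q is on the right arm of IV.

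Of the 20 smallest q-values in the combined list, 0 belonged to left-arm and 5 to right-arm regions. Of the 100 smallest, 6 were on left arms and 13 on right arms. Centres held 6 of the 20 and 33 of the 100. Of all 1082 regions, 136 were on left arms, 140 on right arms and 345 in centres. The 13 of 100 on right arms was thus near their share of the list. These counts were not tested. On left arms the smallest q was 2.41e-23, at III:834576-836209, which ranked 24 in the combined list. This region was 1634 bp wide in the combined list and 733 bp in replicate 1. Nearer the left end of III lay III:354538-355328 (q = 3.07e-23) and III:349325-350263 (q = 8.59e-17), at combined ranks 26 and 59. All of the 5 strongest left-arm regions were on III or IV, including IV:1659096-1659470 (q = 4.90e-17). The left arms of II and V held nothing below 9.84e-12, the value of V:1151329-1151791, while the smallest q on the left arm of II was 3.23e-11.

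On right arms the smallest q was also the first of all 1082, at IV:14032438-14034628, 1064 kb from the boundary, with 2191 bp and q = 3.02e-64; its replicate 1 counterpart had 1885 bp and q = 2.88e-31. Among right-arm regions it was followed by III:10461016-10461430 (415 bp, q = 1.42e-31), only 121 kb inside the right arm. The third was V:19521612-19523089 (1478 bp, q = 3.95e-29), at rank 10 of all combined regions and rank 12 of replicate 1. Next came IV:13029285-13030417 (q = 2.64e-28) and III:10989248-10990074 (q = 2.66e-28), at combined ranks 11 and 12. The smallest q on the right arm of II was 2.19e-23, at II:14804251-14804838, the rank 9 region of replicate 1. All regions named in these 2 paragraphs met a region in both replicate lists.

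Over all arm regions, however, q did not differ between the sides by the test. The median −log10 q was 5.78 on left arms (quartiles 4.87 and 7.50) and 6.00 on right arms (quartiles 4.71 and 8.05). Of the left-arm regions 45.6% had a q below the median of their chromosome's arms, against 53.6% of right-arm regions (odds ratio 0.726, 95% interval 0.439 to 1.20; exact stratified test, adjusted p = 0.34). In replicate 1 the medians of −log10 q were 5.33 on the left and 6.03 on the right (odds ratio 0.45, 95% interval 0.171 to 1.15, exact stratified test, adjusted p = 0.155).

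Regions were spaced more widely on left arms, though not past the test. The median gap between neighbouring regions of an arm was 81.6 kb on left arms (132 gaps) and 52.1 kb on right arms (136 gaps). Of the left-arm gaps 43.2% were shorter than the median gap of their chromosome's arms, against 55.9% on right arms. The odds ratio of 0.60 did not pass (95% interval 0.358 to 1.0; exact stratified test, unadjusted p = 0.0494, adjusted p = 0.148). Without the fullest window, on the right arm of V, it was 0.811 (exact stratified test, adjusted p = 0.661). By chromosome, V alone passed. Its median gap was 184 kb on the left arm and 49.2 kb on the right (exact test, adjusted p = 0.0168 over 4 chromosomes); in the replicate 2 list V did not pass (exact test, adjusted p = 0.15). On III it was 77.9 kb left and 50.3 kb right (exact test, adjusted p = 0.374). On II and IV the left gaps were the shorter ones, at 46.9 kb left and 60.9 kb right on II and 71.2 kb left and 80.9 kb right on IV.

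Close neighbours, at most 2000 bp apart, were few on both sides: 8 of 132 gaps on left arms (6.06%) and 11 of 136 on right arms (8.09%). On left arms they formed 8 pairs, and no run was longer. On right arms there were 9 runs, and 2 of these had 3 regions. One ran on V from 19513996 to 19523089 and held both the widest arm region and the smallest q of that arm. The other ran on II from 14248005 to 14251743, with a smallest q of 1.06e-16. In each of the longer runs replicate 1 held 2 of the 3 regions.

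Support in the replicate 1 list showed no difference between the sides by the test. A combined region was taken as supported where it overlapped a region of the replicate list by at least 1 bp. Replicate 1 held 37 of 136 left-arm regions, or 27.2% (95% Wilson interval 20.4 to 35.2%), and 42 of 140 right-arm regions, or 30% (23.0 to 38.04%). The odds ratio was 0.864 (95% interval 0.492 to 1.51; exact stratified test, adjusted p = 0.713), an interval that leaves room for a lower or a higher share on left arms. By chromosome, the share in replicate 1 was 28.1% on the left and 33.3% on the right arm of II, and 34.2% on the left and 31.9% on the right arm of III. It was 23.1% on the left and 34.6% on the right arm of IV, and 22.2% on the left and 21.6% on the right arm of V.

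Replicate 2 held 132 of 136 left-arm regions (97.1%) and 135 of 140 right-arm regions (96.4%) (odds ratio 1.30, 95% interval 0.269 to 6.77, exact stratified test, adjusted p = 0.745). However, 111 of the left-arm and 108 of the right-arm regions had the start, end and q of a replicate 2 region. Their support was fixed in advance, so this test cannot tell whether the sides differ in replicate 2 support. Every arm region that replicate 1 held was also held by replicate 2. The remaining 4 left-arm and 5 right-arm regions met neither list, 3.26% of arm regions, against 2.03% in the centres (7 of 345) and 1.57% over the whole list (17 of 1082). Their q-values began at 9.13e-06, at II:3110236-3110540 on the left arm, and the smallest of them ranked 759 of 1082. On the left arms of III and IV and the right arm of V, every combined region had the start, end and q of a replicate 2 region, while on the left arm of II 14 of 32 did. The regions of that arm without such a match were not scattered but lay side by side, from II:3076818 to II:4851721.

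**Figure D4:**
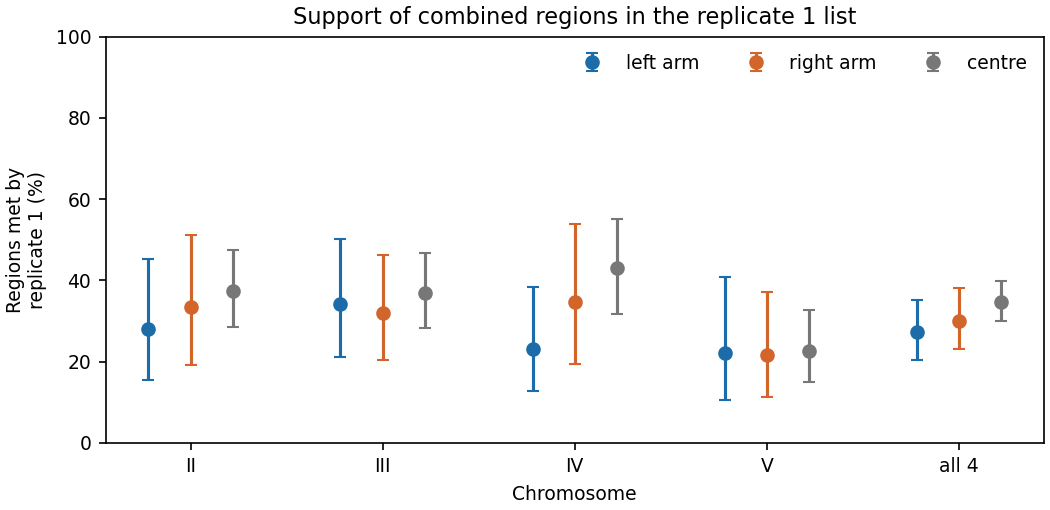
Share of combined regions that overlap a replicate 1 region by at least 1 bp (points; bars, 95% Wilson intervals), by chromosome, for left arms (blue), right arms (orange) and centres (grey). Over all 4 chromosomes the share is 27.2% on left arms, 30% on right arms and 34.8% in centres, with overlapping intervals.

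The nearest arm regions lay 27.3 to 82.8 kb inside the 8 boundaries and the nearest centre regions 45.7 to 284 kb outside them. Just inside the left arm of III lay III:3664251-3664550 (300 bp, q = 4.18e-15), and just outside it III:3789740-3790157 (418 bp, q = 4.04e-06). At the right boundary of IV the nearest region inside was IV:13013105-13013825 (721 bp, q = 3.50e-05), and the nearest outside was IV:12686021-12686037 (17 bp, q = 5.30e-05). Over all 8 boundaries, q ran from 4.18e-15 to 4.38e-05 just inside and from 9.15e-07 to 5.30e-05 just outside.

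Set against the centres of the same chromosomes, the arms held fewer regions. Arms had 276 regions on 33.2 Mb, or 8.31 per Mb, and centres 345 on 33.5 Mb, or 10.3 per Mb. The ratio was 0.806 (95% exact interval 0.686 to 0.947; exact binomial test, adjusted p = 0.0241 over 3 comparisons), and it was 0.680 in replicate 1 (exact binomial test, adjusted p = 0.0196). Of the 4 chromosomes, II alone passed, with 62 arm regions and 96 centre regions (ratio 0.584, exact binomial test, adjusted p = 0.00411 over 4 chromosomes). The ratio was 0.787 on III and 0.802 on V, both close to the pooled one, and on IV it lay on the other side of 1, at 1.13 (exact binomial test, adjusted p = 0.212 on III, 0.252 on V and 0.539 on IV). Without II the pooled ratio was 0.894 and did not pass (exact binomial test, adjusted p = 0.245), and without IV it was 0.731 (exact binomial test, adjusted p = 0.00177). Replicate 1 held 79 of 276 arm regions (28.6%) and 120 of 345 centre regions (34.8%), which did not pass either (odds ratio 0.743, exact stratified test, adjusted p = 0.098). Over the whole combined list it held 309 of 1082 regions (28.6%), the same share as on the arms, with 34.4% on X and 14.6% on I. Chromosome X, with 12.5 regions per Mb over its whole span, and chromosome I, with 16.6 per Mb, were both denser than the arms; these differences were not tested.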

How the data were processed

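Per the file headers and columns, the authors called binding regions with PeakSeq and deposited a q-value (a p-value adjusted for multiple tests) for each, on WormBase WS180. The sources used here do not name the PeakSeq version, its settings, control or q threshold, the aligner, or how the lists were combined. The depth is unknown, so intervals cover the counting of regions only. The remaining steps used scipy 1.17.1 and pandas 2.3.3 with numpy 2.4.6 under Python 3.11.15, and figures matplotlib 3.10.9. Groups came from the titles. Densities were compared with the exact binomial test, and shares with the exact Cochran-Mantel-Haenszel test stratified by chromosome, all two-sided, with a threshold of 0.05 after Benjamini-Hochberg adjustment over 6 comparisons of left with right arms and 3 further ones. Both tests were tested on simulated data with independent regions, which cannot show how they behave with clustered ones. Named regions are the smallest q of each arm, the 5 smallest and the widest per side, those nearest the boundaries, unsupported ones and the longest runs. The arms and the tests were chosen with earlier results of these data known. Alternatives were each replicate list, stricter or wider regions, other overlaps, close regions joined, and each chromosome left out. Genes were not analysed here, since the gene table at hand is on another build.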

Additional observations from a re-analysis of the deposited data

Results flagged for a closer look

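Left and right arms differed in how their regions were placed along the arm. Of the left-arm regions 50% lay in the outer segment (68 of 136, 95% Wilson interval 41.7 to 58.3%), and of the right-arm regions 64.3% did (90 of 140, 56.1 to 71.7%). The common odds ratio, left over right, was 0.576 (95% interval 0.344 to 0.961; exact Cochran-Mantel-Haenszel test over 4 chromosomes, p = 0.0275). This comparison was chosen after the counts were seen, so its p is not that of a planned test. Without chromosome II the odds ratio was 0.822 (exact test, p = 0.489), without V 0.614 (p = 0.0947 by the same exact test), and without the fullest window, on the right arm of V, 0.670 (exact test, p = 0.126). In replicate 1 alone, 18 of 40 left-arm and 28 of 43 right-arm regions lay in the outer segment, an odds ratio of 0.458 (exact test, p = 0.0847).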

How the results depend on the processing

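Of 112 values under alternatives, over 10 results, 86 kept their direction and their side of the threshold, 21 lost the call, 3 gained it and 2 changed direction without passing in either setting. The odds ratio for width stayed below 1 in all 13 alternatives (0.144 to 0.553). It lost the call, by the exact adjusted p, among regions with q below the list median (0.487), with close regions joined (0.527), without II (0.485), IV (0.492) or V (0.544), and, as settings chosen after the data were seen, in the inner segments (0.527) and without the fullest window (0.553). The density ratio of left over right arms gained the call without IV (0.652) and turned to 1.15 in the inner segments. The odds ratio for replicate 2 support turned to 0.68 without IV. The outer over inner ratio lost the call among regions in both replicate lists (1.19), with close regions joined (1.29), without II (1.28), III (1.36) or V (1.26) and without the fullest window (1.28). The ratio of arms over centres lost it without II (0.894). Arm over centre support in replicate 1 gained it with a reciprocal overlap of 50% (0.699) and with midpoints within 200 bp (0.676). The outer share of left over right arms lost it among regions in both lists (0.44), with close regions joined (0.646), without II (0.822) or V (0.614) and without the fullest window (0.67). The cause was not tested; several settings also leave fewer regions. Taken from either replicate list alone, the values ranged from 0.787 to 0.821 for density, 0.16 to 0.457 for width, 0.45 to 0.742 for q, 0.628 to 0.735 for spacing, 1.24 to 1.37 for outer over inner, 0.68 to 0.801 for arms over centres and 0.458 to 0.59 for the outer share. Replicate 2 support had no odds ratio among the regions with q below the median, as all of them were supported. No paired analysis was possible because all lists come from 1 group, the ChIP samples, and nothing was compared across samples. Unknown depth limits what absence from the shorter replicate 1 list can show.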
